A study of Homo sapiens with 4 samples.

Results

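The m6A reader proteins are the proteins that bind m6A-modified RNA, and the transcripts that encode them can carry the mark themselves. The m6A peaks listed on 10 reader genes were examined in RWPE1 cells with and without knockdown of FTO. Members were all peaks of the deposited lists that lie on the strand of the gene and overlap its hg19 locus, which gave 12 of the 10087 peaks of control cells and 11 of the 10323 peaks of FTO knockdown cells, 23 in all. The rule uses the position and strand of a peak and not its score or width.

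RWPE1 is an immortalized line of human prostate epithelial cells. In the control group (shCtrl) the cells carried the lentiviral vector, and in the knockdown group (shFTO) they carried an shRNA with a single target sequence in FTO, and both were kept as stable lines under puromycin. FTO is a demethylase that removes m6A. In MeRIP-seq, RNA fragments are enriched with an antibody against m6A, and a region with more reads in the immunoprecipitated (IP) library than in the matched input is called as a peak. Each group had 1 IP library and 1 input library, 4 libraries in all, so every difference described below lacks a replicate check and no test between the groups was possible. The lists hold no read counts, and the depth behind a peak and the level of each transcript are unknown, so a missing peak, a missing transcript and a lower m6A level cannot be told apart.

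Readers act after the writer complex has placed the mark and before an eraser such as FTO takes it away. YTHDF1, YTHDF2 and YTHDF3 are cytoplasmic proteins that recognise m6A through a YTH domain and act on translation and decay of mRNA. YTHDC1 is the nuclear YTH protein, with roles in splicing and export, and YTHDC2 is a YTH protein with a helicase domain that is best known from germ cells. The IGF2BP proteins bind RNA through KH domains and stabilise their target mRNAs, and HNRNPA2B1 and HNRNPC are abundant nuclear RNA-binding proteins that take part in processing of transcripts. Along mRNAs in general, m6A is most frequent near the stop codon and in long exons.

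Of the 10 reader genes, 5 had a listed peak in both groups, namely YTHDF1, YTHDF2, YTHDF3, YTHDC1 and IGF2BP2. YTHDC2 and IGF2BP3 had peaks in the shCtrl list alone, HNRNPA2B1 and HNRNPC in the shFTO list alone, and IGF2BP1 in neither. The same split was not computed over all genes, so these counts have no background to be read against. No peak of either list lay on the opposite strand of any of the 10 loci. Even in the 5 genes with peaks in both groups the peaks often lay at different places. A peak with at least 1 bp of overlap with a peak of the other list was counted as having a partner. In the shCtrl list 9 of the 12 reader peaks had no partner, or 75.0% (95% Wilson interval 46.8% to 91.1%, counting error only), and over the whole list 79.8% of peaks had none. In the shFTO list 8 of the 11 reader peaks had no partner, or 72.7% (43.4% to 90.3%), against 80.4% over the whole list. The shares of the reader genes were near those of all peaks. The intervals are wide and treat peaks of the same gene as independent, so they cannot decide whether the shares differ. The 6 peaks with a partner form 3 pairs, in YTHDF1, YTHDF2 and IGF2BP2. Over the whole lists, 1114 of 2033 such pairs (54.8%) had the same start and end, and 1804 had a start or an end in common. Shared edges, as described below for the reader pairs, were therefore usual.

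**Figure D1:**
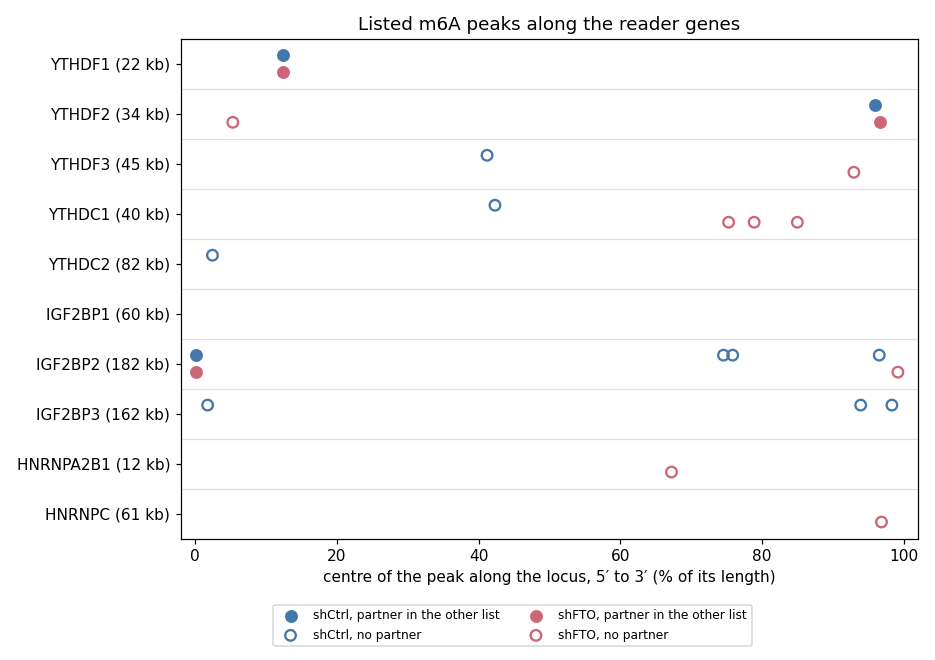
Position of the 23 listed m6A peaks along the 10 reader genes, with the centre of each peak on the x axis as a percentage of the locus from its 5′ to its 3′ edge and the length of the locus in brackets. Blue points are shCtrl peaks, red points shFTO peaks, and filled points have an overlapping peak in the other list. Filled points stand in YTHDF1, YTHDF2 and IGF2BP2 alone, and the row of IGF2BP1 is empty.

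Among the cytoplasmic YTHDF readers, YTHDF1 had the same peak in both groups. It covered chromosome 20 from 61845216 to 61845295 on the minus strand, 80 bp wide, with both edges at the same base in both lists and 2.71 kb from the 5′ edge of the locus. Its score was 277 in shCtrl cells and 234 in shFTO cells. The score is the authors' own and appears, from its range, to be a scaled negative logarithm of the P value. Scores cannot be set against each other between lists, so each was also ranked within its list, as the percentage of peaks with the same or a lower score. The YTHDF1 peak ranked at 63.4% among shCtrl peaks and at 51.8% among shFTO peaks, above the middle of both.

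YTHDF2, which directs m6A-marked mRNA to decay, had a peak at its 3′ end in both groups. It started at base 29095441 of chromosome 1 in both lists, on the plus strand, and ended at 29095802 in shCtrl cells and at 29096287 in shFTO cells. The width was therefore 362 bp in control and 847 bp in knockdown cells, a difference of 485 bp at the 3′ side alone. The score was 375 in shCtrl cells (71.0% of the list) and 708 in shFTO cells (75.9%), so the within-list ranks were close. The shFTO list also held a peak near the 5′ end of YTHDF2, from 29064771 to 29064850, with a score of 273 (55.3%) and no partner. This peak was 80 bp wide, as was the peak of YTHDF1, and both lay within 3 kb of the 5′ edge of their loci. Peaks of exactly 80 bp made up 0.297% of all shCtrl peaks and 0.213% of all shFTO peaks. The width was taken from the peaks themselves, so these shares do not measure how often reader peaks match in width. Whether these 80 bp peaks lie on corresponding exons of the paralogous genes was not tested.

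YTHDF3 had 1 peak in each group, and they lay 21.9 kb apart. The shCtrl peak covered chromosome 8 from 64098784 to 64100303, 1520 bp in the middle of the locus, with a score of 1866 that was at or above 92.5% of its list. The shFTO peak covered 64122241 to 64123440, 1200 bp that ended 2.56 kb from the 3′ edge, with a score of 515 (69.9%). Both are wide, since 9.66% of shCtrl peaks and 15.3% of shFTO peaks in the whole lists exceeded 1000 bp. YTHDF3 thus carried a long peak in each group and had none at the same place in both.

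The nuclear reader YTHDC1 had 1 weak peak in shCtrl cells and 3 peaks in shFTO cells, with no overlap. The shCtrl peak covered chromosome 4 from 69199026 to 69199115 on the minus strand, 90 bp, with a score of 71.5, which ranked at 15.7% of its list. The shFTO peaks lay further towards the 3′ end, within 4.09 kb of each other. The strongest covered 69181833 to 69182166, 334 bp, with a score of 2480 (92.0%). The others were 64 bp wide with a score of 281 (55.9%) and 83 bp wide with a score of 107 (28.0%). The nearest of them lay 13.1 kb from the shCtrl peak. YTHDC2 had a single listed peak, in shCtrl cells, from 112850969 to 112851054 on the plus strand of chromosome 5. It was 86 bp wide, 1.97 kb from the 5′ edge of the locus, and with a score of 63.0 (10.3%) it was the lowest-scoring reader peak of either list.

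In the IGF2BP family, IGF2BP2 had 4 peaks in shCtrl cells and 2 in shFTO cells. The pair at its 5′ end had identical edges, from 185542571 to 185542827 on the minus strand of chromosome 3, 257 bp wide. The score of this peak was 948 in shCtrl cells (85.7%) and 612 in shFTO cells (73.4%). At the 3′ end the lists differed. The shFTO list held a peak of 1885 bp, from 185361527 to 185363411, with a score of 1928 (89.9%), which was the widest of the 23 reader peaks. The nearest shCtrl peak lay 3.78 kb further upstream in the gene, from 185367191 to 185367322, 132 bp wide with a score of 763 (83.0%). The remaining shCtrl peaks, of 135 bp and 273 bp, lay in the body of the gene with scores of 175 and 173, at the middle of their list.

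IGF2BP3 had 3 peaks in shCtrl cells and none in shFTO cells. The widest covered chromosome 7 from 23351283 to 23352079 on the minus strand, 797 bp that lay 2.28 kb from the 3′ edge, with a score of 555 (78.3%). A peak of 61 bp near the 5′ edge had a score of 506 (76.9%), and a peak of 117 bp had a score of 78.5 (19.8%). IGF2BP1, whose locus spans 60 kb on chromosome 17, had no listed peak in either group. The family therefore showed 3 different patterns, with peaks in both lists for IGF2BP2, in the shCtrl list alone for IGF2BP3 and in neither for IGF2BP1.

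Both HNRNP readers had 1 peak in shFTO cells and none in shCtrl cells. The HNRNPC peak covered chromosome 14 from 21678093 to 21679725 on the minus strand, 1633 bp that ended 1.09 kb from the 3′ edge of the locus. The HNRNPA2B1 peak covered chromosome 7 from 26232871 to 26232993 on the minus strand, 123 bp wide, 3.87 kb from the 3′ edge of a locus of 12 kb. Each had a score of exactly 3100, a value that 611 shFTO peaks and 406 shCtrl peaks share, so they cannot be ranked against each other. A score of 3100 or more was carried by 2 of the 11 reader peaks and 6.19% of all peaks in the shFTO list. In the shCtrl list it was carried by 0 of the 12 reader peaks and 4.23% of all peaks. The highest-scoring reader peak of the shCtrl list was that of YTHDF3.

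**Figure D2:**
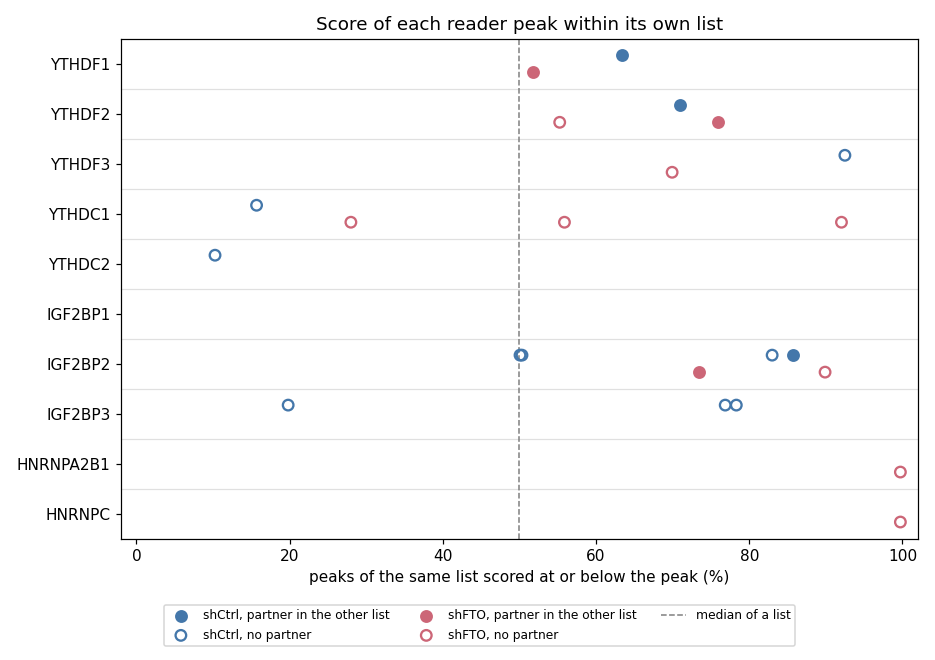
Score of each reader peak as a rank within its own list, with the percentage of peaks of that list that score the same or lower on the x axis and the genes on the y axis. Blue points are shCtrl peaks, red points shFTO peaks, and filled points have an overlapping peak in the other list. HNRNPA2B1 and HNRNPC stand at the right edge at the shared score of 3100, while the shCtrl peaks of YTHDC1 and YTHDC2 are below 16% of their list, and a pair of open IGF2BP2 points overlaps at the dashed median line.

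The median within-list rank of the reader peaks was 67.2% for the 12 shCtrl peaks, which ranged from 10.3% to 92.5%, and 9 of them were above 50%. A pair of these 9, in IGF2BP2, stood at 50.1% and 50.3%, at the middle of the list, and 7 of the 12 were among its 5000 highest scores. For the 11 shFTO peaks the median was 73.4%, the lowest 28.0%, and 10 were above 50%. By median, the peaks did not differ in width from the rest in the same direction in both lists. Their median width was 134 bp in shCtrl cells, where the whole list had 212 bp, and 257 bp in shFTO cells, where the whole list had 242 bp. Peaks under 100 bp made up 4 of 12 reader peaks and 17.8% of all peaks in the shCtrl list, and 4 of 11 reader peaks and 12.1% of all peaks in the shFTO list. Peaks over 1000 bp made up 1 of 12 reader peaks and 9.66% of all peaks in the shCtrl list. In the shFTO list they made up 3 of 11 reader peaks and 15.3% of all peaks.

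Peaks were also described by their place in the gene, within each list, since a peak with a partner stands in both lists. Of the 12 shCtrl peaks, 4 lay within 5 kb of the 5′ edge of their locus and were 61 to 257 bp wide, and 2 lay within 5 kb of the 3′ edge, in YTHDF2 and IGF2BP3, and were 362 and 797 bp wide. The other 6 shCtrl peaks were 90 to 1520 bp wide with a median of 134 bp, and the widest of them was that of YTHDF3. Of the 11 shFTO peaks, 3 lay within 5 kb of the 5′ edge and were 80 to 257 bp wide, and 5 lay within 5 kb of the 3′ edge and were 123 to 1885 bp wide with a median of 1200 bp. The other 3 were the YTHDC1 peaks, of 64 to 334 bp. These are counts of few peaks from 1 library pair in each group, the loci were of very different length, from 12 to 182 kb, and positions within genes were not determined for the rest of the lists.

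**Figure D3:**
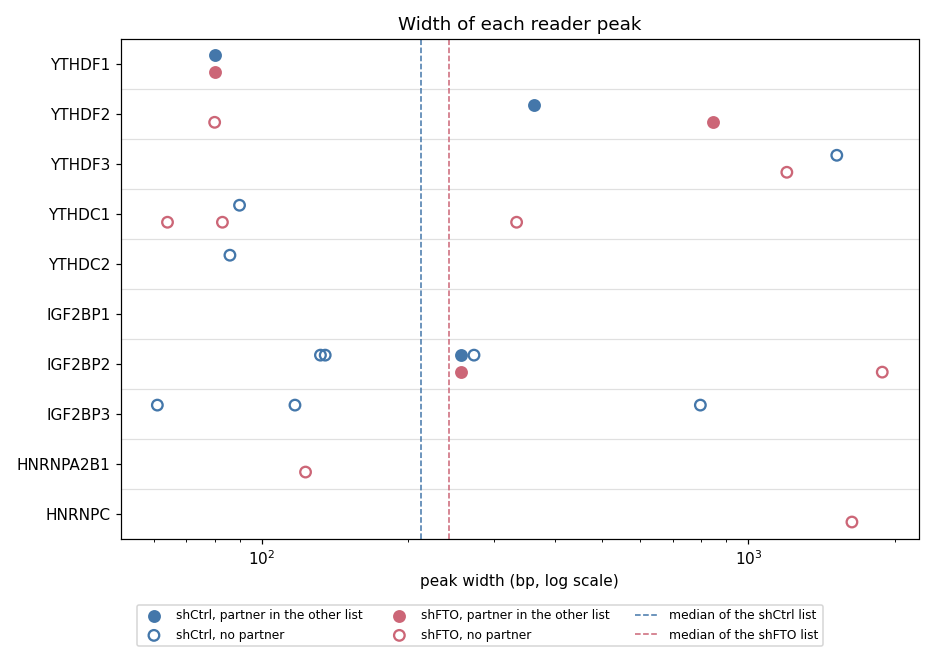
Width in bp of each reader peak on a log scale, by gene, with shCtrl peaks in blue, shFTO peaks in red and filled points for peaks that overlap a peak of the other list. Dashed lines give the median width of each whole list, 212 bp and 242 bp. The pairs of YTHDF1 and IGF2BP2 have the same width in both lists, and the YTHDF2 pair has 362 bp and 847 bp.

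Listed peaks covered 3910 bp of the reader genes in control cells and 6586 bp after knockdown, a ratio of 1.68. Over the whole lists the same ratio was 1.34. Covered length moves with how much was called in each group, so both ratios are description only. The covered length was greater in shFTO cells for YTHDF2, YTHDC1, IGF2BP2, HNRNPA2B1 and HNRNPC, greater in shCtrl cells for YTHDF3, YTHDC2 and IGF2BP3, and equal for YTHDF1. The 3′ peaks of IGF2BP2 and HNRNPC, of 1885 bp and 1633 bp, together exceed the difference of 2676 bp between the groups.

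**Figure D4:**
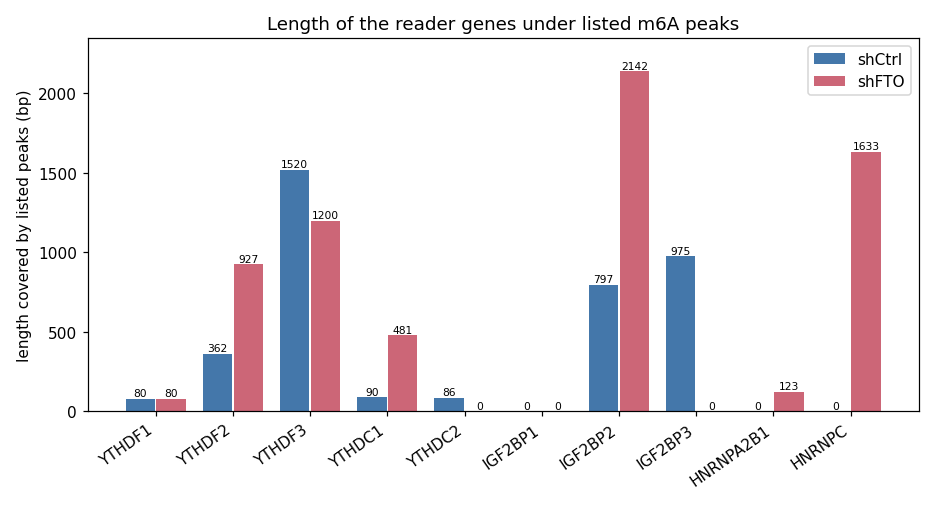
Length in bp of each reader gene under listed m6A peaks, with a blue bar for shCtrl cells, a red bar for shFTO cells and the value above each bar. There is 1 list per group and no error bar. The tallest bars are those of IGF2BP2 (2142 bp) and HNRNPC (1633 bp) in shFTO cells, and HNRNPC has no listed length in shCtrl cells.

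What a missing peak means was examined with the numbers in the peak names, which rose along every chromosome in both lists. MACS, the peak caller whose form of name they have, numbers its peaks one after another, so a number that is absent between neighbouring listed peaks was read as a peak that was called but not listed. This reading is an assumption, since the caller's settings and the rule that selected the listed peaks are not given. The listed peaks amount to 5.80% of the highest shCtrl number and 6.39% of the highest shFTO number. Each of the 17 reader peaks without a partner was placed between the nearest listed peaks of the other list. Absent numbers lay in each of these intervals, from 9 to 97 for shCtrl peaks and from 10 to 119 for shFTO peaks. With so few of the numbers listed this is the rule for any peak: absent numbers lay in the interval for 99.8% of all shCtrl peaks without a partner and 99.9% of all such shFTO peaks, with a median of 24 in both. The intervals of the reader peaks were long, from 53.7 kb to 3011 kb, and the position of an unlisted peak is not known. The lists therefore do not tell whether a peak was called at the same place in the other group, for the 17 reader peaks as for nearly all others.

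The same count was made for whole genes. Across HNRNPC, the shCtrl list had 48 absent numbers in the 363 kb between its flanking peaks, and across HNRNPA2B1 it had 76 in 2004 kb. Across IGF2BP3 the shFTO list had 71 in 343 kb and across YTHDC2 97 in 2190 kb. Around IGF2BP1 the shCtrl list had 7 in 165 kb and the shFTO list 78 in 802 kb. Within single genes, the 4 shCtrl peaks of IGF2BP2 span 41 numbers over 176 kb, its 2 shFTO peaks span 35 numbers over 181 kb, and the 3 shCtrl peaks of IGF2BP3 span 30 numbers over 157 kb. Among the genes with several peaks in a list, the 3 shFTO peaks of YTHDC1 are the only full set whose numbers follow each other. The shCtrl peaks of 135 bp and 273 bp in IGF2BP2 also have neighbouring numbers, 116382 and 116383. On the assumption that numbers are consecutive, no called peak was left out between the YTHDC1 peaks or between these IGF2BP2 peaks.

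A list of 8 other genes of the m6A pathway was counted in the same way, which leaves out further members such as METTL16 and ALKBH3. These writers and erasers (METTL3, METTL14, WTAP, RBM15, VIRMA, ZC3H13, FTO and ALKBH5) had 10 peaks in shCtrl cells, of which 3 had a partner, and 13 in shFTO cells, of which 3 had a partner. Those without a partner thus made up 70.0% (95% Wilson interval 39.7% to 89.2%) and 76.9% (49.7% to 91.8%), near the 79.8% and 80.4% of the whole lists. Of these genes, 4 had peaks in both groups, 3 in shFTO cells alone, 0 in shCtrl cells alone and 1 in neither. No such split over all genes was computed, so the 3 against 0 was not read as a gain. ALKBH5, an m6A eraser like FTO, had its only peak in shFTO cells, 1461 bp wide and with the score of 3100, as HNRNPC had. FTO itself, the target of the shRNA, had 4 peaks in shCtrl cells and 1 in shFTO cells, none of them with a partner. The 4 shCtrl peaks covered 355 bp in all and ranked at most at 37.2% of their list. The shFTO peak covered 628 bp and ranked at 68.3%. A peak list does not measure the level of a transcript, so the knockdown could not be checked in these data. The paper reports a check of FTO depletion in RWPE1 cells by western blot.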

How the data were processed

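MeRIP-seq of RWPE1 cells was deposited as 2 peak lists, 1 for shCtrl and 1 for shFTO cells, each from 1 IP and 1 input library. Per the labels, reads were trimmed with cutadapt 1.9.3 and aligned with HISAT2, and the build is hg19; the peak caller's settings, the rule that selected the listed peaks and the way a strand was given are not given in the sources used here. The score in the deposited lists is the authors' own and was compared only within a list. Starts were counted from 1.

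The loci of the reader genes were given in hg19 kb, so distances from an edge are good to about 1 kb. Each locus was set against its gene length in the RefSeq table of GRCh38.p14, from which it differed by at most 1.72 kb. The loci of the writers and erasers were written from general knowledge of hg19. They fell short of that length by 3.04 kb for METTL14 and 5.98 kb for FTO, and widening all of them by 6 kb left 10 and 13 peaks. Exons were not assigned and no peak sequence is shown, since a genome of the build of the lists was not used here.

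Overlaps were computed in Python 3.11.15 with pandas 2.3.3, with 95% Wilson intervals from SciPy 1.17.1, and were tested on simulated data. Depth is unknown. With 1 library pair per group no test was made. Overlap, score limit, merging, strand and locus edges were varied in 10 alternatives. The members and lists were chosen with earlier results of these data known. The rule for named genes took all 10 readers and the 8 writers and erasers.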

Additional observations from a re-analysis of the deposited data

How the results depend on the processing

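Of the 40 values recomputed under 10 alternatives, 39 stayed within 1.5 times the reported value. The exception was the number of reader peaks in the shCtrl list, which was 7 instead of 12 when each list was limited to its 5000 top scores, where fewer peaks are used by construction. YTHDC1 and YTHDC2 then had no shCtrl peak, so 4 reader genes had a peak in both groups, and the same held when each list was limited to scores from its median upwards. A reciprocal overlap of at least 50% left 4 peaks with a partner in place of 6, because the YTHDF2 peaks differ in width. Merging nearby peaks, using either strand, widening the loci by 5 kb and keeping peaks whole inside the locus left every value unchanged. These settings altered no member peak, so they add little to the count of 39. No paired analysis was possible because each group has 1 IP library, and for the same reason no library could be left out. The unknown depth limits what a missing peak shows.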
